A study of Mus musculus with 9 samples.

Results

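The transcripts of 35 lysosomal genes, taken by name from a list of non-cathepsin lysosomal hydrolases, their cofactors, lysosomal membrane proteins and the MiT/TFE transcription factors, were followed across 3 populations of dendritic cell (DC) progenitors. All 35 had a probe set of their own among the 19938 genes measured. Cells were sorted by flow cytometry from the marrow of pelvis, tibia and femur. The mice carried 1 Zbtb46-GFP reporter allele, in which green fluorescent protein marks expression of the classical DC factor Zbtb46. The arrays were of common DC progenitors without the reporter signal (Zbtb46- CDPs), common DC progenitors with it (Zbtb46+ CDPs) and precursors of the CD8 lineage of DCs, now called cDC1 (Pre-CD8 DCs), with 3 arrays each. All 9 arrays came from reporter mice, and no treatment, age or sort gate is given in the labels. The study set out to describe how expression changes along this order of development. Whether a replicate was 1 mouse, a pool or a repeat sort is not stated, so p-values reflect spread between arrays that may be technical.

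Lysosomes are acidic organelles in which hydrolases break down proteins, glycans, lipids and nucleic acids delivered by endocytosis, phagocytosis and autophagy. Most soluble hydrolases are made in the endoplasmic reticulum, receive a mannose 6-phosphate tag in the Golgi and are carried to lysosomes by receptors for that tag, while membrane proteins such as Lamp1 protect and shape the organelle. In DCs the same compartment prepares antigens for presentation, and many lysosomal genes across tissues carry a promoter element bound by the factors Tfeb, Tfe3 and Mitf.

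Values are log2 of the array signal, and a difference is called when the moderated test of limma, fitted to all 19938 genes, gives a Benjamini-Hochberg adjusted p under 0.05. Array medians ran from 110.2 to 118.0 on the linear scale, and precision is limited by having 3 arrays a group. The median log2 signal of all genes was 6.96. Signals near or below it were not shown to lie above background, and differences from or to them may be understated. Probe sets respond differently, so levels are compared between populations for 1 gene and not between genes. In sorted bulk RNA, fewer cells with a transcript and less transcript per cell cannot be told apart.

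The labelled populations were set against marker lists. The 10 cDC1 markers summed to a linear signal of 6990 to 7770 in Zbtb46- CDPs, 10600 to 14200 in Zbtb46+ CDPs and 19400 to 20100 in Pre-CD8 DCs, although Cd8a and Itgae lay below the median of all genes in all 9 arrays. Irf8, a large part of that sum, was called in no comparison. The 5 common DC progenitor markers summed to 10300 to 10600, 6360 to 8010 and 7040 to 7310 in the same order. Csf1r and Cd34 fell at both steps and Csf2rb was not called. Kit rose at the second step (0.90, adjusted p = 0.00423), and Flt3 fell at the first and rose at the second. The array numbered 1 stood apart in both CDP groups. Xist read 5.30 and 5.59 on log2 scale in replicate 1 of Zbtb46+ CDPs and of Zbtb46- CDPs, against 11.85 to 12.29 on the other 7 arrays. Xist is transcribed in female cells, so the cells of these arrays may differ in sex from the rest, which was not tested. The summed signal of 10 neutrophil markers, several of them granule proteins, was 27200 to 31800 in Zbtb46- CDPs, 7720, 7750 and 32000 in Zbtb46+ CDPs, where replicate 1 was the high array, and 980 to 1990 in Pre-CD8 DCs. Mpo, Elane, Prtn3 and Ctsg were even across the Zbtb46- arrays. These 4 were called lower over the span (40%, against 9.23% of all genes). Ngp, S100a8, S100a9, Lcn2, Camp and Ltf were instead highest in replicate 1 of both CDP groups. Ngp read 10.48, 5.70 and 6.84 in Zbtb46- CDPs and 12.36, 5.39 and 5.73 in Zbtb46+ CDPs. Pre-CD8 DCs were split too, at 8.30, 5.78 and 8.54, so the spread of Ngp was not confined to the CDP groups. The 8 monocyte and macrophage markers summed to 2840 to 3030 in Zbtb46- CDPs, 3410 to 4470 in Zbtb46+ CDPs and 5660 to 6510 in Pre-CD8 DCs, with Mertk and C1qa below the median of all genes in every array. The list was split over the span. Ccr2 and Lyz2 were called higher (25%, against 6.43% of all genes) and Cd14 and Adgre1 lower (25%, against 9.23%).

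The lysosomal genes moved with this array. In Zbtb46+ CDPs replicate 1 held the highest value for 29 of the 35 (82.9%), against 40.4% of all genes, and its median excess over the mean of the other replicates was 0.37, against -0.01 for all genes. It exceeded both other replicates by over 0.5 for 12 of the 35 (34.3%, against 7.73% of all genes). In Zbtb46- CDPs replicate 1 was highest for 27 of the 35 (77.1%, against 43.3% of all genes), with a median excess of 0.17 against 0.02. The part of the neutrophil transcripts, or of a difference in sex, in the results was not tested. Comparisons are therefore given on all 9 arrays and again without these 2 arrays, a setting that added 24 calls among the 35 genes and lost none. Leaving out replicate 1 of Zbtb46+ CDPs alone added 23 of the same 24, all but Smpd1 at the first step. The deviations of every array are shown in the colour map.

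**Figure D1:**
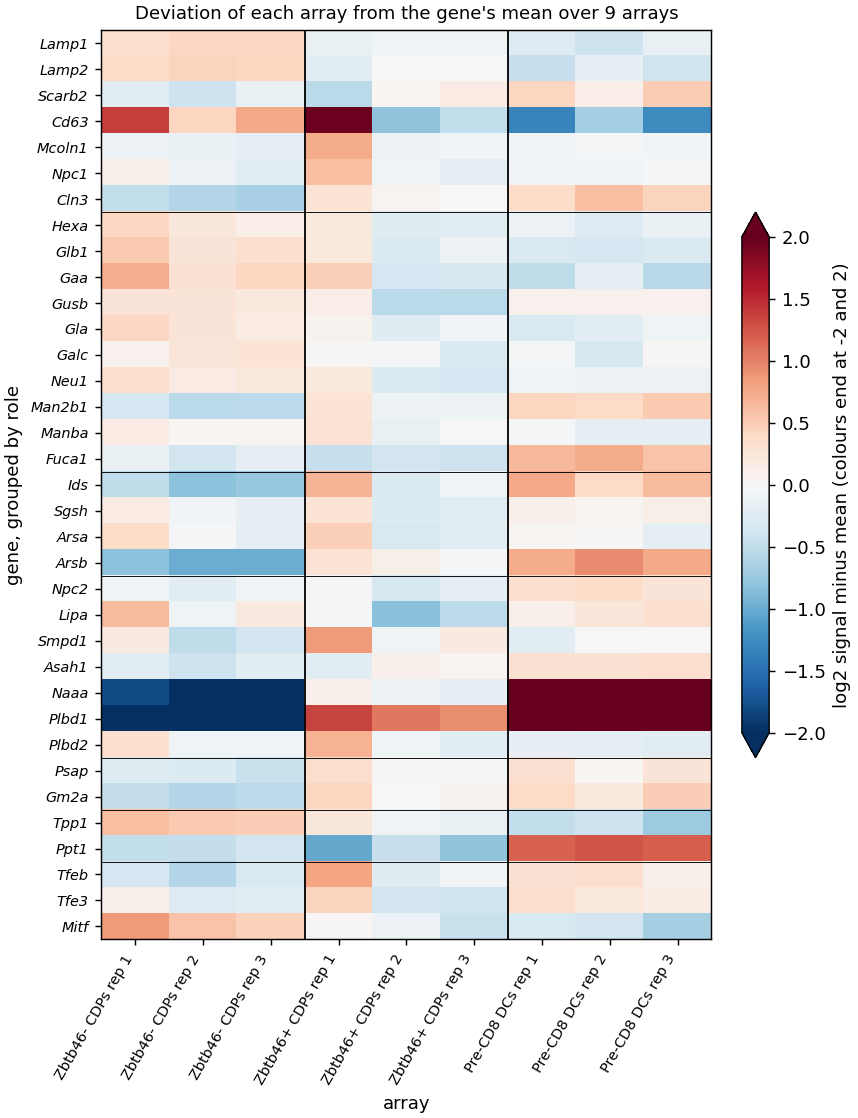
Colour map of 35 lysosomal genes (rows, grouped by role) on 9 arrays (columns); colour is the log2 signal minus the mean of that gene over the 9 arrays, with colours ending at -2 and 2. Replicate 1 of Zbtb46+ CDPs is darker red than its group for Cd63, Mcoln1, Smpd1 and Tfeb, and Naaa and Plbd1 run from blue in Zbtb46- CDPs to red in Pre-CD8 DCs.

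The promoter element of the MiT/TFE factors has the E-box CACGTG at its core. It was searched for as written, as TCACGTG and as the related TCATGTG, each on both strands, in RefSeq promoter windows (mouse build GRCm38.p6) of 250 bases before to 50 after each annotated start. A window was matched for 32 of the 35 genes, all but Npc1, Plbd2 and Asah1. CACGTG occurred in 9 of the 32 windows (28.1%), against 8.09% of 27025 genes with a window. TCACGTG, which contains CACGTG, was found in the same 9 (28.1%, against 4.29%): Lamp1, Mcoln1, Cln3, Glb1, Gaa, Gla, Sgsh, Arsa and Plbd1. TCATGTG was found in Scarb2, Gla, Tpp1 and Ppt1 (12.5%, against 4.31%). A match describes the letters of the window only.

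The 100 bases before the start are shown for 5 genes with the core in that stretch, to compare its copy number and place, and for the 3 genes with the largest called rises over the whole span, which lack it there. Sequences are from RefSeq, GRCm38.p6, written 5′ to 3′ on the strand of the gene, with CACGTG in capitals.
Lamp1, chr8:13159061-13159160, plus strand: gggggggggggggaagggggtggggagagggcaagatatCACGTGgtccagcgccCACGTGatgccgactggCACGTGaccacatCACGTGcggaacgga
Mcoln1, chr8:3500419-3500518, plus strand: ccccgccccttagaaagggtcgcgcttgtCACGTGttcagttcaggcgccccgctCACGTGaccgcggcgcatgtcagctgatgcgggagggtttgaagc
Glb1, chr9:114400978-114401077, plus strand: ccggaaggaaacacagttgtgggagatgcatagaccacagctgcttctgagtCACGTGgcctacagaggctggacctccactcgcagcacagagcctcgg
Sgsh, chr11:119355511-119355610, minus strand: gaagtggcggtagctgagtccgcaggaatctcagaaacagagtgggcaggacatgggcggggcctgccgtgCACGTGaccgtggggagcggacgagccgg
Arsa, chr15:89477425-89477524, minus strand: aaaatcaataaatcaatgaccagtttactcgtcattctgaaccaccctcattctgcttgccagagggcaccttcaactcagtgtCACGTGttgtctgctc
Plbd1, chr6:136661894-136661993, minus strand: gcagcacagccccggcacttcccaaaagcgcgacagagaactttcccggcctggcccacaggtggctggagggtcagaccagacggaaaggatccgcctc
Naaa, chr5:92278182-92278281, minus strand: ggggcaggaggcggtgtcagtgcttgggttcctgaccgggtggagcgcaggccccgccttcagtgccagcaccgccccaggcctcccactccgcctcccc
Arsb, chr13:93771579-93771678, plus strand: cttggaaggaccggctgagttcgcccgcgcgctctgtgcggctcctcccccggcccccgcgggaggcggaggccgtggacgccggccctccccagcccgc
Lamp1 carried 4 cores in this stretch, Mcoln1 carried 2, and Glb1, Sgsh and Arsa carried 1 each. Plbd1 had its only core after the start, at positions 44 to 49, while Naaa and Arsb had none in the whole window. The start used for Plbd1 lies inside the annotated gene, which extends to position 136662303. Its printed bases are therefore within the gene, and those before its outer end are not shown.

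**Figure D2:**
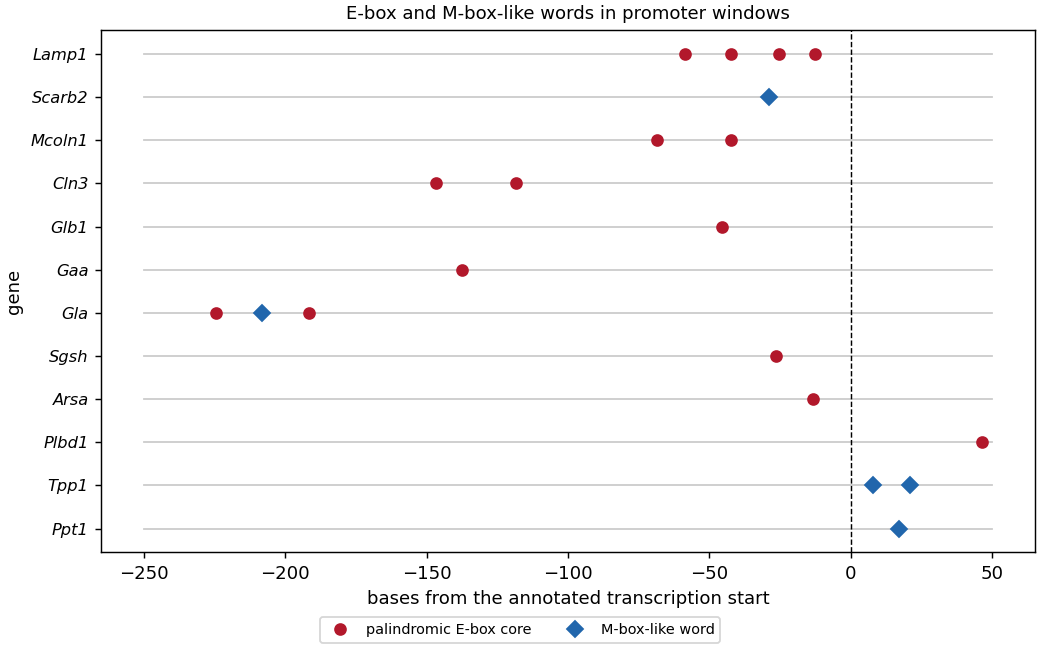
Positions of the E-box core CACGTG (red circles) and of TCATGTG (blue diamonds) in the promoter windows of the 12 lysosomal genes that hold either, in bases from the annotated transcription start (dashed line). Lamp1 has 4 cores between -61 and -10, and the single match of Plbd1 lies after it.

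Across the 3 populations, 19 of the 35 lysosomal genes passed the moderated F test, against 19.1% of all genes, and 20 were called in at least 1 pairwise comparison, against 22% of all genes. The call was made at both steps for 4 of the 35 (Arsb, Naaa, Plbd1 and Tpp1), against 3.45% of all genes. Of the 20, 12 were called higher in the more advanced population and 8 lower, and none in both directions. Of all genes 4.97% were called with a log2 difference of 1 or more in at least 1 comparison, and 9 of the 35 were: Plbd1, Naaa, Arsb, Ids, Cln3, Ppt1 and Fuca1 rose, and Tpp1 and Mitf fell. By comparison, such calls numbered 3 at the first step (2.34% of all genes), 4 at the second (1.22%) and 8 over the whole span (4.22%). The plot of array values shows them. The remaining 15 genes were called in no comparison on all 9 arrays.

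**Figure D3:**
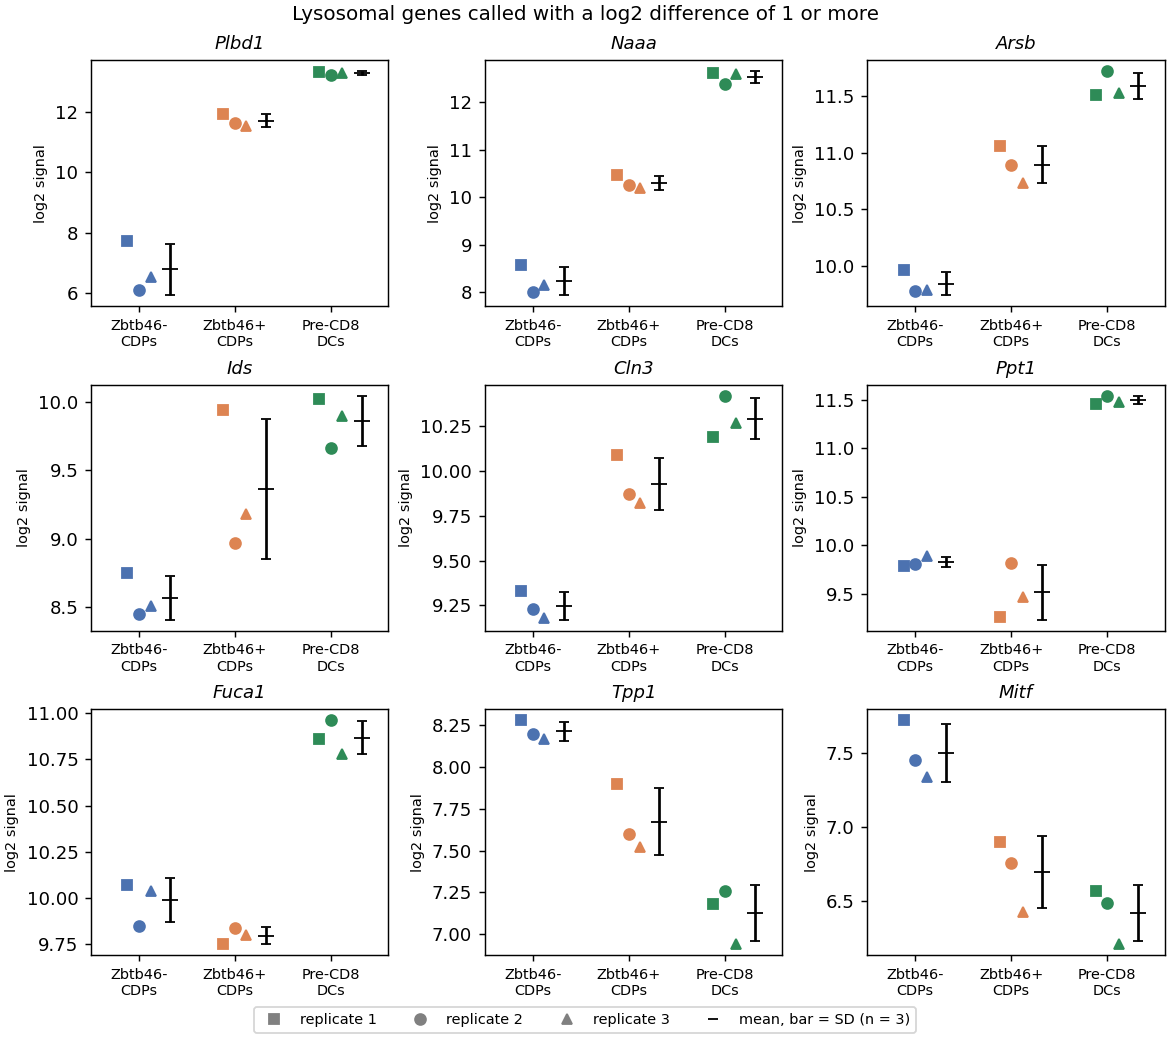
Log2 signal of the 9 lysosomal genes called with a difference of 1 or more, by population in order of development; symbols are arrays (square, circle and triangle for replicates 1, 2 and 3) and bars are the mean and SD (n = 3), with a separate vertical scale for each gene. Plbd1, Naaa, Arsb and Tpp1 step in the same direction at both steps, while Ppt1 and Fuca1 have their largest shift between Zbtb46+ CDPs and Pre-CD8 DCs.

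The first comparison, Zbtb46+ CDPs minus Zbtb46- CDPs, asks what separates progenitors with the reporter signal from those without it. Of the 35 genes, 8 were called higher (22.9%, against 3.85% of all genes) and 5 lower (14.3%, against 10.6%), and 22 were not called. In either direction 14.4% of all genes were called. With the 30% dimmest genes dropped, 8 members were higher and 8 lower, beside 770 and 2277 of 13957 genes. The median difference of the 35 was -0.05, against 0.04 for all genes, and 0.11 against 0.01 after quantile normalization. The arrays of both groups did not overlap for 19 of the 35, against 29.3% of all genes. With the replicate number as a block, which pairs arrays by number, 8 were higher and 8 lower. Only the arrays numbered 1 of the CDP groups were seen to go together. Pairing of the other CDP arrays and of the Pre-CD8 arrays was not shown, which limits every block call below. Without the arrays numbered 1 there were 10 higher and 12 lower. The count of lower genes was 3 without replicate 1 of Zbtb46- CDPs and 12 without replicate 1 of Zbtb46+ CDPs, and that of higher genes was 5 without replicate 2 or 3 of Zbtb46- CDPs.

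The second comparison, Pre-CD8 DCs minus Zbtb46+ CDPs, shares the Zbtb46+ arrays with the first. There 6 of the 35 were higher (17.1%, against 4.76% of all genes) and 1 was lower (2.86%, against 1.86%), which makes 7 calls against 6.62% of all genes, with a median of 0.09 against -0.03 for all genes. The arrays did not overlap for 12 of the 35, against 22.9% of all genes. Without the arrays numbered 1 there were 14 higher and 2 lower, and the same counts were found without replicate 1 of Zbtb46+ CDPs alone. The single lower call, of Tpp1, was lost without replicate 2 of Zbtb46+ CDPs or replicate 1 or 3 of Pre-CD8 DCs.

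Over the whole span, Pre-CD8 DCs minus Zbtb46- CDPs, 12 of the 35 were higher (34.3%, against 6.43% of all genes) and 7 lower (20%, against 9.23%), which makes 19 calls against 15.7% of all genes. The median was 0.09, against 0.01 for all genes. The arrays did not overlap for 30 of the 35, against 33.7% of all genes. Without the arrays numbered 1 there were 15 higher and 10 lower. The plot of differences gives each gene in the 3 comparisons.

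**Figure D4:**
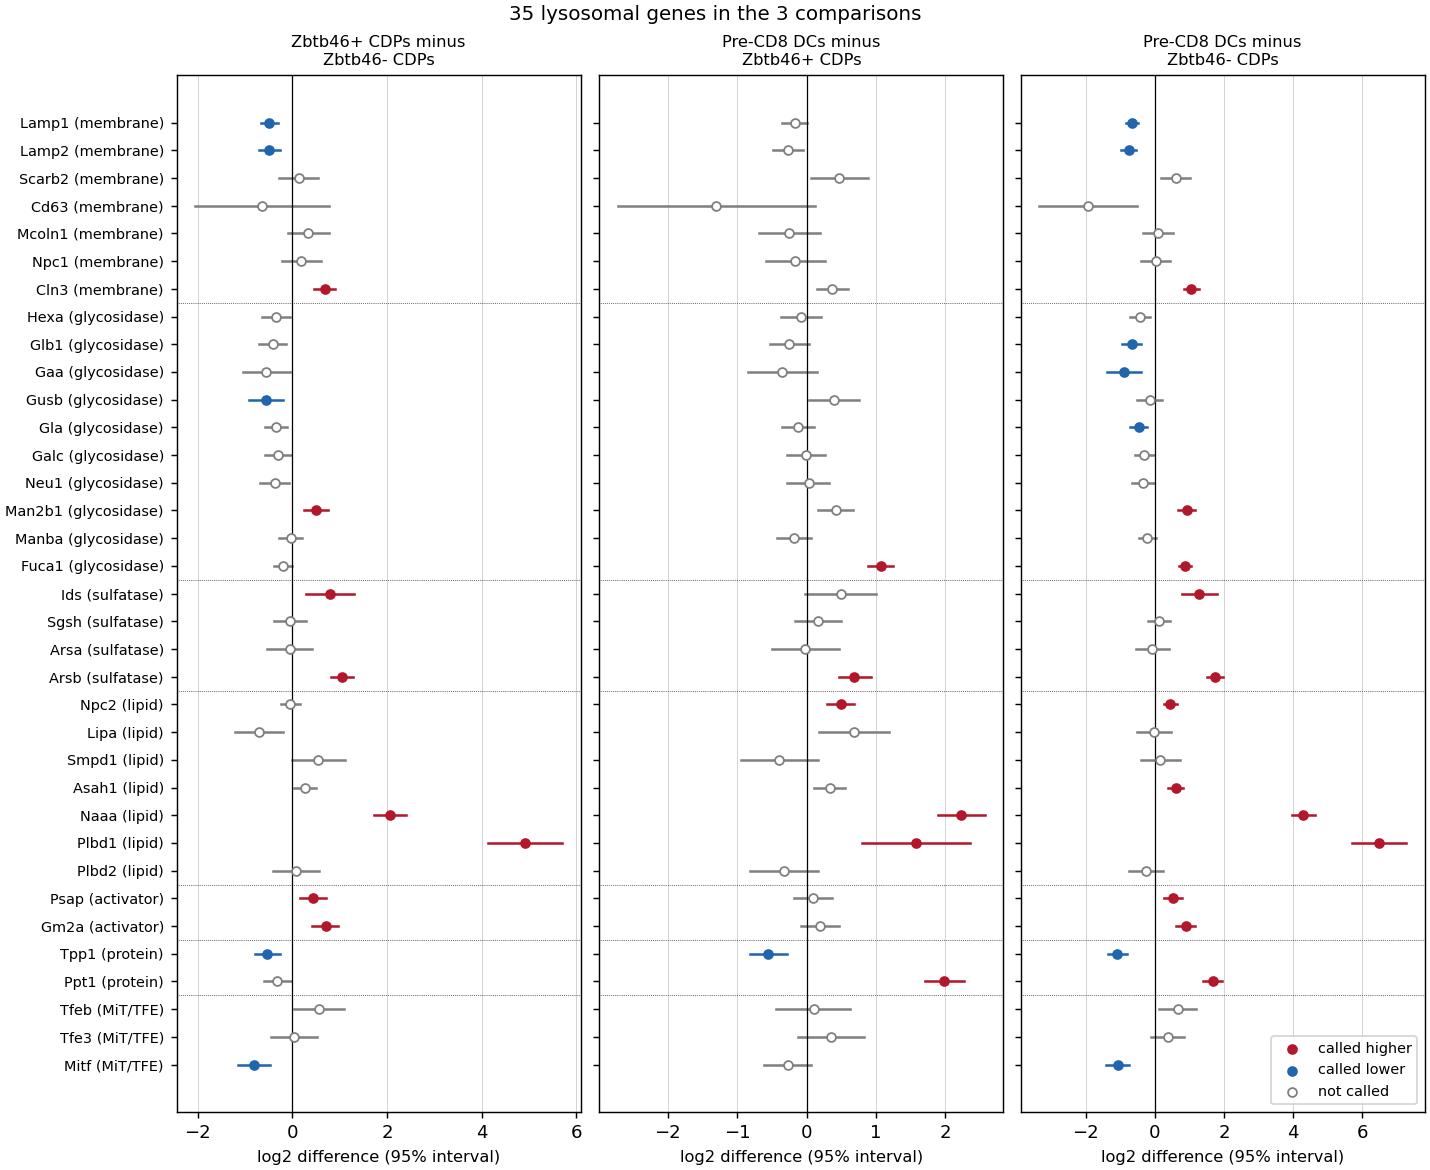
Log2 difference (point) and its 95% interval (line) of each of the 35 lysosomal genes in the 3 comparisons, on all 9 arrays, grouped by role with a separate horizontal scale per panel; filled red and blue points are called higher and lower at an adjusted p under 0.05, open points are not called. Plbd1 and Naaa lie far to the right in all 3 panels, and Cd63 has the widest intervals among the membrane proteins.

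Among the membrane proteins, Lamp1 and Lamp2, the glycoproteins that line the inner face of the lysosomal membrane, fell and Cln3, the protein defective in a childhood neuronal storage disease of humans, rose. Lamp1 read 10.40, 10.50 and 10.49 in Zbtb46- CDPs, 9.93, 9.99 and 10.02 in Zbtb46+ CDPs, and 9.82, 9.67 and 9.93 in Pre-CD8 DCs. Zbtb46- CDPs were above both other populations on every array, while Pre-CD8 DCs and Zbtb46+ CDPs overlapped. The difference was -0.49 (SE 0.0810, adjusted p = 0.00428) at the first step, -0.17 (adjusted p = 0.297) at the second and -0.66 (adjusted p = 0.000492) over the whole span.

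Lamp2 was called at the same comparisons. It read 11.28, 11.33 and 11.31 in Zbtb46- CDPs, 10.66, 10.90 and 10.88 in Zbtb46+ CDPs, and 10.42, 10.72 and 10.49 in Pre-CD8 DCs, so that only the later populations overlapped. It fell by 0.49 (SE 0.0975, adjusted p = 0.00955) at the first step and by 0.76 (adjusted p = 0.000625) over the span. The second step, -0.27 (adjusted p = 0.163), was called without the arrays numbered 1 (-0.35, adjusted p = 0.0356).

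Cln3 read 9.33, 9.23 and 9.18 in Zbtb46- CDPs, 10.09, 9.87 and 9.82 in Zbtb46+ CDPs, and 10.19, 10.42 and 10.27 in Pre-CD8 DCs, without overlap between any populations. It rose by 0.68 (SE 0.0961, adjusted p = 0.00192) at the first step and by 1.05 (adjusted p = 8.01e-05) over the span. The second step was 0.37 (adjusted p = 0.0561), and 0.45 (adjusted p = 0.00862) without the arrays numbered 1.

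The other membrane proteins were not called on all arrays. Cd63, a tetraspanin of late endosomes, is given by array because its replicates diverged, a choice made after its values were seen. It read 9.39, 8.44 and 8.77 in Zbtb46- CDPs, 9.96, 7.20 and 7.51 in Zbtb46+ CDPs, and 6.69, 7.33 and 6.75 in Pre-CD8 DCs. Replicate 1 was the high array of both CDP groups, and Pre-CD8 DCs lay below every array of Zbtb46- CDPs. The Pre-CD8 arrays were near or below the median of all genes, so falls to them may be understated. The difference over the span was -1.94 (adjusted p = 0.0724), and -1.94 (adjusted p = 0.0465) with the replicate block. The Pre-CD8 arrays were not shown to pair by number, so the block call carries that limit. Leaving out the arrays numbered 1, Cd63 was lower in Zbtb46+ CDPs than in Zbtb46- CDPs (-1.25, adjusted p = 0.00832) and lower in Pre-CD8 DCs than in Zbtb46- CDPs (-1.68, adjusted p = 0.00101).

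Scarb2, the receptor that carries glucocerebrosidase to lysosomes, averaged 8.70 ± 0.15 in Zbtb46- CDPs, 8.83 ± 0.37 in Zbtb46+ CDPs and 9.31 ± 0.20 in Pre-CD8 DCs (SD, n = 3). Its difference over the span was 0.61 (adjusted p = 0.0549), called with the block (adjusted p = 0.0403) and without the arrays numbered 1 (0.63, adjusted p = 0.0138). The block call of Scarb2 carries the same limit as that of Cd63. Mcoln1, a calcium channel of the lysosomal membrane, averaged 9.33 ± 0.04, 9.66 ± 0.48 and 9.41 ± 0.03 in the same order. Npc1, the membrane protein that exports cholesterol, averaged 9.08 ± 0.17, 9.27 ± 0.43 and 9.11 ± 0.01. Over the span the 95% intervals of the difference were -0.35 to 0.52 for Mcoln1 and -0.39 to 0.45 for Npc1.

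The 10 glycosidases, which trim sugars from glycoproteins, glycolipids and glycogen, split by enzyme. In Pre-CD8 DCs against Zbtb46- CDPs, Man2b1 and Fuca1 were called higher and Glb1, Gaa and Gla lower, with a median of -0.33. The arrays of these populations did not overlap for any of the 10, against 33.7% of all genes. In Zbtb46+ CDPs against Zbtb46- CDPs 9 of the 10 differences were negative, although Gusb was the only glycosidase called lower.

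Fuca1, the fucosidase, rose at the second step. It read 10.07, 9.85 and 10.04 in Zbtb46- CDPs, 9.75, 9.84 and 9.80 in Zbtb46+ CDPs, and 10.86, 10.96 and 10.78 in Pre-CD8 DCs, all of which lay above every CDP array. The second step was 1.07 (SE 0.0827, adjusted p = 0.000115), a 2.10-fold rise, against -0.19 (adjusted p = 0.164) at the first. The test of the second step minus the first, a contrast added after the data were seen, gave 1.26 (SE 0.143, adjusted p = 0.00211). Of all genes 6.26% were called as more positive at the second step and 1.36% as more positive at the first.

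Man2b1, the acid alpha-mannosidase, averaged 10.66 ± 0.10 in Zbtb46- CDPs, 11.16 ± 0.22 in Zbtb46+ CDPs and 11.59 ± 0.07 in Pre-CD8 DCs (SD, n = 3), without overlap between populations. It rose by 0.50 (adjusted p = 0.0168) at the first step and by 0.92 (adjusted p = 0.000433) over the span. The first call was lost without replicate 2 or 3 of Zbtb46- CDPs (0.47 to 0.48, adjusted p = 0.0559 to 0.0665). The second step, 0.42 (adjusted p = 0.0575), was called with the block (adjusted p = 0.0458) and without the arrays numbered 1 (0.55, adjusted p = 0.00167). Pairing of the Pre-CD8 arrays by number, which the block assumes, was not shown.

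Glb1, the acid beta-galactosidase, Gaa, which degrades glycogen, and Gla, an alpha-galactosidase, all fell over the span. Glb1 averaged 9.25 ± 0.14 in Zbtb46- CDPs, 8.82 ± 0.25 in Zbtb46+ CDPs and 8.57 ± 0.02 in Pre-CD8 DCs, a difference over the span of -0.67 (adjusted p = 0.00533). Its first step, -0.42 (adjusted p = 0.0518), was called with the block (adjusted p = 0.0242) and without the arrays numbered 1 (-0.48, adjusted p = 0.00507). Gaa averaged 9.12 ± 0.22, 8.56 ± 0.47 and 8.21 ± 0.19 in the same order. It fell by 0.90 over the span (adjusted p = 0.0217), a call lost without replicate 1 or 3 of Zbtb46- CDPs or of Pre-CD8 DCs (-0.93 to -0.79, adjusted p = 0.0611 to 0.0892). Gla averaged 8.30 ± 0.13, 7.95 ± 0.16 and 7.82 ± 0.11 and fell by 0.47 over the span (adjusted p = 0.0140). That call was lost without replicate 1 of Zbtb46- CDPs or replicate 1 or 2 of Pre-CD8 DCs (adjusted p = 0.0508 to 0.0644). The first step was called for Gaa (-0.71, adjusted p = 0.00681) and Gla (-0.35, adjusted p = 0.0424) without the arrays numbered 1.

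Gusb, the beta-glucuronidase, averaged 9.99 ± 0.38 in Zbtb46+ CDPs and 10.54 ± 0.04 in Zbtb46- CDPs. Its fall of 0.55 just passed the threshold (adjusted p = 0.0499). The call was lost when any single array other than replicate 1 of Zbtb46+ CDPs was left out (-0.57 to -0.44, adjusted p = 0.0754 to 0.156), and after quantile normalization (adjusted p = 0.0566), median scaling (adjusted p = 0.0522) and trended robust moderation (adjusted p = 0.0525). Pre-CD8 DCs averaged 10.39 ± 0.01, and without the arrays numbered 1 the second step was a rise of 0.62 (adjusted p = 0.000623).

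Hexa, the alpha subunit of beta-hexosaminidase, averaged 11.40 ± 0.15 in Zbtb46- CDPs, 11.05 ± 0.25 in Zbtb46+ CDPs and 10.97 ± 0.08 in Pre-CD8 DCs, and was not called on all arrays. With the block it was lower at the first step (-0.35, adjusted p = 0.0410) and over the span (-0.43, adjusted p = 0.0169), as it was without the arrays numbered 1 (adjusted p = 0.00866 and 0.0100). The block call over the span rests on Pre-CD8 arrays not shown to pair. Neu1, the lysosomal sialidase, averaged 7.75 ± 0.09, 7.37 ± 0.30 and 7.40 ± 0.02. It was called lower without the arrays numbered 1, with -0.50 at the first step (adjusted p = 0.00212) and -0.30 over the span (adjusted p = 0.00981). The calls were also made without replicate 1 of Zbtb46+ CDPs alone (-0.55, adjusted p = 0.00140, and -0.35, adjusted p = 0.00544). Galc, the galactosylceramidase, was dim throughout at 5.95 ± 0.10, 5.65 ± 0.17 and 5.64 ± 0.19. Manba, the beta-mannosidase, averaged 8.62 ± 0.07, 8.58 ± 0.23 and 8.40 ± 0.08, with a 95% interval of -0.47 to 0.03 over the span.

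Of the 4 sulfatases, which remove sulfate from glycosaminoglycans and sulfolipids, Arsb and Ids rose and Sgsh and Arsa were not called. Arsb, which acts on dermatan and chondroitin sulfate, read 9.96, 9.78 and 9.79 in Zbtb46- CDPs, 11.06, 10.89 and 10.73 in Zbtb46+ CDPs, and 11.51, 11.72 and 11.53 in Pre-CD8 DCs. No populations overlapped. It rose by 1.05 (SE 0.103, adjusted p = 0.000306) at the first step, by 0.69 (adjusted p = 0.00472) at the second and by 1.75 (adjusted p = 5.45e-06), or 3.36-fold, over the span. A second Arsb probe set gave 0.98 at the first step and 1.72 over the span.

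Ids, the iduronate sulfatase, read 8.75, 8.45 and 8.51 in Zbtb46- CDPs, 9.94, 8.97 and 9.18 in Zbtb46+ CDPs, and 10.02, 9.66 and 9.90 in Pre-CD8 DCs. Zbtb46- CDPs were below both other populations, and replicate 1 of Zbtb46+ CDPs lay among the Pre-CD8 DCs. The rise over the span was 1.29 (SE 0.225, adjusted p = 0.00392). That of the first step, 0.80 (adjusted p = 0.0455), was lost when any single array other than replicate 1 or 2 of Zbtb46+ CDPs was left out (0.74 to 0.89, adjusted p = 0.0603 to 0.131). The second step, 0.49 (adjusted p = 0.279), was called without the arrays numbered 1 (0.78, adjusted p = 0.00461).

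Sgsh, which acts on heparan sulfate, averaged 8.27 ± 0.16 in Zbtb46- CDPs, 8.22 ± 0.31 in Zbtb46+ CDPs and 8.39 ± 0.04 in Pre-CD8 DCs. Arsa, which acts on sulfatide, averaged 8.21 ± 0.30, 8.15 ± 0.43 and 8.13 ± 0.13. Over the span the 95% intervals were -0.21 to 0.45 for Sgsh and -0.56 to 0.40 for Arsa. Sgsh was higher at the second step without the arrays numbered 1 (0.34, adjusted p = 0.0104).

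The lipid group held the largest changes. Plbd1, a phospholipase B-like protein, read 7.74, 6.10 and 6.53 in Zbtb46- CDPs, 11.95, 11.65 and 11.53 in Zbtb46+ CDPs, and 13.34, 13.22 and 13.31 in Pre-CD8 DCs. The populations were far apart on every array, and replicate 1 was the highest array of both CDP groups. Plbd1 rose by 4.92 (SE 0.344, adjusted p = 5.24e-05) at the first step, 30.3-fold, and by 6.50 (adjusted p = 2.86e-06), 90.6-fold, over the span. The starting level lay below the median of all genes in 2 of 3 arrays, so these rises may be understated. The second step was 1.58 (adjusted p = 0.0270), a call lost without replicate 2 or 3 of Zbtb46+ CDPs or any 1 Pre-CD8 array (1.49 to 1.62, adjusted p = 0.0800 to 0.100). The second step minus the first was -3.34 (SE 0.596, adjusted p = 0.0128), and -3.40 (adjusted p = 0.0524) without replicate 2 of Zbtb46+ CDPs.

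Naaa, the acid amidase that cleaves the lipid mediator palmitoylethanolamide, rose at both steps. It read 8.57, 7.99 and 8.15 in Zbtb46- CDPs, 10.46, 10.25 and 10.19 in Zbtb46+ CDPs, and 12.61, 12.39 and 12.59 in Pre-CD8 DCs, without overlap. The differences were 2.06 (SE 0.148, adjusted p = 5.95e-05) at the first step, 2.23 (adjusted p = 4.22e-05) at the second and 4.29 (adjusted p = 2.11e-07), 19.6-fold, over the span. The second step minus the first was 0.17 (SE 0.256, adjusted p = 0.704).

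Asah1 and Npc2 rose by less. Asah1, the acid ceramidase, averaged 10.52 ± 0.10 in Zbtb46- CDPs, 10.79 ± 0.18 in Zbtb46+ CDPs and 11.12 ± 0.02 in Pre-CD8 DCs, and rose by 0.60 over the span (adjusted p = 0.00274). Its first step was called too without the arrays numbered 1 (0.40, adjusted p = 0.0106). Npc2, the soluble protein that hands cholesterol to Npc1, averaged 10.87 ± 0.07, 10.82 ± 0.15 and 11.32 ± 0.06. It rose by 0.50 at the second step (adjusted p = 0.0107) and by 0.45 over the span (adjusted p = 0.00712). The second step minus the first was 0.54 for Npc2 (adjusted p = 0.0644), which did not pass.

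Lipa, the acid lipase that frees cholesterol from its esters, was lowest in Zbtb46+ CDPs, at 8.43 ± 0.40, against 9.13 ± 0.37 in Zbtb46- CDPs. Pre-CD8 DCs averaged 9.11 ± 0.12. On all arrays neither step was called (-0.70, adjusted p = 0.0678, and 0.68, adjusted p = 0.119). With the block the first was (adjusted p = 0.0333), and without the arrays numbered 1 both were (-0.72, adjusted p = 0.00957, and 0.90, adjusted p = 0.00374). The second step minus the first, 1.39, did not pass (adjusted p = 0.0642).

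Smpd1, the acid sphingomyelinase, averaged 8.51 ± 0.37 in Zbtb46- CDPs, 9.06 ± 0.48 in Zbtb46+ CDPs and 8.67 ± 0.13 in Pre-CD8 DCs, and was not called on all arrays. It was called higher at the first step without the arrays numbered 1 (0.50, adjusted p = 0.0245) and after quantile normalization (0.71, adjusted p = 0.0296). Plbd2, the paralogue of Plbd1, averaged 9.27 ± 0.24, 9.35 ± 0.49 and 9.03 ± 0.03. Its difference over the span had a 95% interval of -0.74 to 0.24, against 5.72 to 7.28 for Plbd1.

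Both sphingolipid activator genes rose at the first step. Psap, the precursor of the saposins that present glycolipids to hydrolases, read 13.15, 13.13 and 12.96 in Zbtb46- CDPs, 13.75, 13.42 and 13.38 in Zbtb46+ CDPs, and 13.71, 13.44 and 13.66 in Pre-CD8 DCs. Zbtb46- CDPs were the lowest, and the later populations overlapped. The first step was 0.44 (SE 0.117, adjusted p = 0.0380). Leaving out any array of Zbtb46- CDPs, replicate 2 of Zbtb46+ CDPs or replicate 1 or 3 of Pre-CD8 DCs ended this call (0.38 to 0.49, adjusted p = 0.0557 to 0.134). The rise over the span, 0.53 (adjusted p = 0.0142), was lost without replicate 3 of Zbtb46- CDPs or replicate 1 or 3 of Pre-CD8 DCs (adjusted p = 0.0599 to 0.0645). Gm2a, the activator of GM2 ganglioside breakdown, averaged 11.08 ± 0.05, 11.77 ± 0.22 and 11.97 ± 0.15. It rose by 0.70 at the first step (adjusted p = 0.00516) and by 0.89 over the span (adjusted p = 0.000900).

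The peptidase and the thioesterase, both defective in infantile or late infantile forms of the same human storage disease as Cln3, moved in opposite directions. Ppt1, which removes palmitate from proteins, read 9.79, 9.81 and 9.89 in Zbtb46- CDPs, 9.26, 9.82 and 9.47 in Zbtb46+ CDPs, and 11.46, 11.54 and 11.48 in Pre-CD8 DCs. The CDP groups overlapped, and every Pre-CD8 array was above all of them. Ppt1 rose by 1.98 (SE 0.126, adjusted p = 3.36e-05), 3.95-fold, at the second step, against -0.32 (adjusted p = 0.135) at the first, which was called lower without replicate 2 of Zbtb46+ CDPs (-0.47, adjusted p = 0.0142). The second step minus the first was 2.30 (SE 0.219, adjusted p = 0.00152).

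Tpp1, the tripeptidyl peptidase, read 8.28, 8.20 and 8.17 in Zbtb46- CDPs, 7.90, 7.60 and 7.52 in Zbtb46+ CDPs, and 7.18, 7.26 and 6.94 in Pre-CD8 DCs. The populations did not overlap, and the last lay close to the median of all genes. Tpp1 fell by 0.54 (SE 0.117, adjusted p = 0.0153) at the first step, by 0.55 (adjusted p = 0.0255) at the second and by 1.09 (adjusted p = 0.000228) over the span. The first call was lost without replicate 1 of Zbtb46- CDPs or replicate 2 of Zbtb46+ CDPs (-0.51 to -0.50, adjusted p = 0.0563 to 0.0584). The second was lost without replicate 2 of Zbtb46+ CDPs or replicate 1 or 3 of Pre-CD8 DCs (-0.58 to -0.46, adjusted p = 0.0585 to 0.0977).

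Of the MiT/TFE factors, Mitf fell and Tfeb and Tfe3 were not called on all arrays. Mitf read 7.72, 7.45 and 7.34 in Zbtb46- CDPs, 6.90, 6.76 and 6.43 in Zbtb46+ CDPs, and 6.57, 6.49 and 6.21 in Pre-CD8 DCs. Zbtb46- CDPs were the highest, while the later populations overlapped below the median of all genes. Mitf fell by 0.81 (SE 0.150, adjusted p = 0.00732) at the first step and by 1.08 (adjusted p = 0.00110) over the span. A second Mitf probe set, dim at 4.14, 3.91 and 3.65 in the 3 populations, differed by -0.23 at the first step and -0.49 over the span.

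Tfeb read 7.89, 7.64 and 7.93 in Zbtb46- CDPs, 9.02, 7.98 and 8.15 in Zbtb46+ CDPs, and 8.54, 8.57 and 8.33 in Pre-CD8 DCs. Zbtb46- CDPs lay below both other populations, and replicate 1 of Zbtb46+ CDPs was the highest array. The first step was 0.56 (adjusted p = 0.154) and the span 0.66 (adjusted p = 0.107). Both were called after quantile normalization (0.73, adjusted p = 0.0338, and 0.73, adjusted p = 0.0283). Without the arrays numbered 1 Tfeb was higher at the second step (0.42, adjusted p = 0.0426) and over the span (0.69, adjusted p = 0.00445).

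Tfe3 read 8.78, 8.42 and 8.45 in Zbtb46- CDPs, 9.13, 8.31 and 8.29 in Zbtb46+ CDPs, and 9.04, 8.90 and 8.83 in Pre-CD8 DCs, which lay above Zbtb46- CDPs and among the spread of Zbtb46+ CDPs. The span was 0.38 (adjusted p = 0.349). Without the arrays numbered 1 Tfe3 was higher at the second step (0.62, adjusted p = 0.00212) and over the span (0.49, adjusted p = 0.00285).

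The genes with the E-box element in their promoter windows were called in both directions. Of the 9 with TCACGTG, 2 were higher and 4 lower over the span, with a median of -0.08, and of the 23 without it 9 were higher and 3 lower, with a median of 0.38. The background over the span was 6.43% higher and 9.23% lower. At the first step the medians were -0.06 with the element and -0.05 without it, and at the second step -0.13 and 0.19. Lamp1 with 4 cores, Glb1, Gaa and Gla fell, Cln3 and Plbd1 rose, and Mcoln1, Sgsh and Arsa were not called. The difference between genes with and without the element was not tested.

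Other lysosomal genes were read from companion lists. The 17 further lysosomal enzymes measured were hydrolases, apart from the acetyltransferase Hgsnat, which was not called. Of the 17, 1 was higher (5.88%, against 6.43% of all genes) and 8 lower (47.1%, against 9.23%) over the span. Their median was -0.41, against 0.01 for all genes. The phospholipase Pla2g15 (-1.54, adjusted p = 3.07e-05), the sulfatase Galns (-1.16, adjusted p = 0.000387) and Ctsa, the protective protein of Neu1 and Glb1 (-1.09, adjusted p = 0.000367), fell. The acid phosphatase Acp5 rose by 0.74 (adjusted p = 0.00229). At the first step 1 was higher (5.88%, against 3.85% of all genes) and 5 were lower (29.4%, against 10.6%). At the second step none was higher and 3 were lower (17.6%, against 1.86%), and Pla2g15 and Ctsa were among the lower at both.

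Of 18 further lysosomal membrane proteins, 3 were higher (16.7%, against 6.43% of all genes) and 1 was lower (5.56%, against 9.23%) over the span, with a median of 0.01, as for all genes. Slc46a3, a transporter of the lysosomal membrane, rose by 3.12 (adjusted p = 5.95e-05) at the first step, 1.39 (adjusted p = 0.00694) at the second and 4.51 (adjusted p = 2.04e-06) over the span. Slc15a3, a peptide and histidine transporter, rose by 1.35 at the first step (adjusted p = 0.00347), and Cd68, a macrophage-associated glycoprotein of lysosomes, rose by 1.05 at the second (adjusted p = 0.0261). Laptm4a fell by 0.60 at the first step (adjusted p = 0.00249) and rose by 0.40 at the second (adjusted p = 0.0309).

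Of 16 subunits and partners of the vacuolar ATPase, the proton pump that acidifies lysosomes, 3 were higher (18.8%, against 6.43% of all genes) and 1 was lower (6.25%, against 9.23%) over the span, with a median of 0.06. Atp6v0a2 rose 2-fold (adjusted p = 0.00506) and Atp6v1b2 fell by 0.63 on the log2 scale (adjusted p = 0.00867), and at the first step 0 were higher and 2 lower (12.5%, against 10.6% of all genes). Of 11 genes listed under mannose 6-phosphate tagging and sorting, 1 was higher (9.09%, against 6.43% of all genes) and 2 were lower (18.2%, against 9.23%) over the span. The higher gene was Sumf1 (0.57, adjusted p = 0.00261), whose product activates sulfatases and is not itself a tagging or sorting protein. Sort1, a sorting receptor, fell by 1.53 (adjusted p = 8.75e-06), and Gnptab, which encodes subunits of the enzyme that starts the tag, fell by 0.80 (adjusted p = 0.000408). The list for mTORC1 and MiT/TFE control at the lysosome held 16 genes, among them Tmem192, a general lysosomal membrane protein that was not called. Of the 16, 3 were higher (18.8%, against 6.43% of all genes) and 0 lower over the span. These were the Rag GTPases Rraga (0.89, adjusted p = 0.00627) and Rragc (0.79, adjusted p = 0.00135) and the amino acid sensor Slc38a9 (0.71, adjusted p = 0.000755).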

How the data were processed

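RNA of sorted cells was labelled with a pico-scale whole-transcript kit, per the labels. The authors deposited a signal intensity per probe set, summarised with RMA in Affymetrix Expression Console per the submitters' processing notes, whose versions and settings are not given in the sources used here. The values were linear (7.45 to 20456), so log2 was taken, with no further scaling or filter. Of 28853 probe sets, 21789 had 1 gene symbol, 1621 several and 5443 were not in the probe table. Of several one-symbol probe sets the one with the highest mean log2 signal was kept, giving 19938 genes.

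Group means of all 9 arrays were fitted with limma 3.58.1 (lmFit, eBayes) in R 4.3.3, and p-values were adjusted over all genes. An unadjusted p under 0.05 was reached by 24, 14 and 25 of the 35 genes at the first step, the second step and over the span. Residuals of same-numbered arrays correlated by 0.51, 0.42 and 0.36 between the CDP groups. Replicates 2 and 3 also correlated across numbers, by 0.38 for Zbtb46+ replicate 2 with Zbtb46- replicate 3 and 0.15 the other way. Residuals within a group cancel, so the arrays numbered 1 shape these values. Only replicate 1 of the CDP groups is shown to go together. Those of Pre-CD8 DCs correlated by 0.17 at most with either CDP group. The fit of group means ignores any pairing. The replicate number as a block is given beside the calls it changes, but it also covers arrays for which pairing is not shown. The fit was tested on simulated data. Tables and figures used Python 3.11.15, pandas 2.3.3, numpy 2.4.6 and matplotlib 3.10.9.

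The members and lists were chosen with earlier results of these data known. Array values are given for members called with a log2 difference of 1 or more, and for Lamp1, Lamp2, Psap, Tfeb, Tfe3 and Mitf whatever their values. The others are given by group means, except Cd63, whose array values were added after they were seen. From a companion list up to 3 called genes with the largest change in each direction are named. Alternatives were the replicate block, dropping the 30% dimmest genes, the mean of probe sets, quantile normalization, median scaling, trended robust moderation, leaving out both CDP arrays numbered 1 and leaving out each array.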

Additional observations from a re-analysis of the deposited data

How the results depend on the processing

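No called difference of the 35 genes changed sign under any alternative run. Lower members at the first step numbered 8 with the replicate block and 8 with the 30% dimmest genes dropped, against 5. The block ended no call and added 7. Quantile normalization gave 1216 genes higher at the first step, against 768, and 2 lower members and 654 lower genes at the second, against 1 and 370. Without both CDP arrays numbered 1 no call was lost and 24 were gained: 12 members were lower and 1737 genes higher at the first step, 14 members higher and 2 lower with 2496 genes higher and 1570 lower at the second, and 29 members passed the F test, against 19. Leaving out each array in turn gave at the first step 5 to 9 members higher, 3 to 12 lower, 452 to 1999 genes higher and 1310 to 3269 lower. At the second step it gave 5 to 14 members higher, 0 to 2 lower, 458 to 1804 genes higher and 196 to 868 lower. Over the span it gave 11 to 15 members higher and 5 to 10 lower. The cause of these shifts was not tested. Precision is limited by having 3 arrays a group. Signals near or below the median of all genes limit Galc, Mitf in the later populations, Plbd1 in Zbtb46- CDPs, and Cd63 and Tpp1 in Pre-CD8 DCs.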
